A study of Rattus norvegicus with 12 samples.

Results

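Complement is the plasma cascade that marks and lyses targets, and the liver makes most of its soluble parts. The genes described here are the components, receptors and regulators of that cascade: 36 genes were listed by name, and 34 of them had a row among the 16592 named genes of the array table. The rows were found by the gene symbol of the array platform, current or older; C3 and C5ar1 are not analysed here. RNA levels were compared between livers of 6 PCK rats and 6 controls; every animal was a male killed at 10 weeks of age and fed a standard diet. The labels give the PCK animals as cystic, of strain Crj:CD/SD, a Sprague Dawley stock from Charles River Japan, and the controls as healthy Sprague Dawley rats. PCK rats are known to carry a mutation in Pkhd1 and to form cysts in kidney and bile ducts; the labels state no genotype. Because strain stock and disease differ together, their contributions cannot be told apart.

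Complement can start along 3 routes. In the classical route C1q, a hexamer of trimers built from the C1qa, C1qb and C1qc chains, binds antibody or other ligands and switches on the proteases C1r and C1s, which cut C4 and C2. In the lectin route mannose-binding lectins, ficolins or collectins bind sugars and act through the MASP proteases, and the alternative route amplifies the cascade on surfaces through factor B, factor D and properdin. All routes meet at C3 and then C5, after which C6, C7, C8 and C9 assemble into the membrane attack complex, a pore. Hepatocytes are known as the main source of most soluble components, while C1q and properdin come largely from macrophages and other leukocytes.

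Values were log2 signals of 12 arrays whose columns share 1 distribution; they ran from 5.14 to 13.98 with a median of 5.66. Correlations between arrays across genes, which are not independent replicates, were 0.994 to 0.998 within groups and 0.975 to 0.985 between groups. A mean over 10 hepatocyte markers, Alb among them, lay between 13.59 and 13.62 in PCK and between 13.60 and 13.61 in control livers. Levels this high show the label's tissue in both groups. So near the top of a shared distribution, like means do not show an equal share of hepatocytes. Tests came from limma fitted to all named genes, with Benjamini-Hochberg adjustment over all of them, and a gene was called at an adjusted p under 0.05. Of the 10 hepatocyte markers 2 were called higher and 2 lower, where 17.4% of all named genes were higher and 21.0% lower. Each value rests on 6 arrays a group, and this number limits its precision.

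Most complement genes were higher in PCK livers. Of the 34 measured, 21 were called higher and 3 lower, and 10 did not pass. Across all named genes 38.3% were called, 17.4% higher and 21.0% lower. The median difference of the 34 was 0.20 (log2, PCK minus control) against -0.0067 over all genes. In 15 of the 34 every PCK liver lay above every control liver, where 11.0% of all genes did so, and in 2 every PCK liver lay below, where 10.6% did. Bright genes were called more often than dim ones: among the brightest 25% of genes, 58.5% of 4148 were called, 1110 higher and 1318 lower. Of the 28 complement genes among these, 18 were called higher and 3 lower. The median difference of those 28 was 0.20 (log2) against -0.025 over all 4148, and the median absolute difference was 0.21 against 0.20. C7, C6 and C1s were called with a difference of at least 2-fold. They were 3 of the 34 genes (8.82%), where 1.57% of all genes were so called. Among the bright genes they were 3 of the 28 (10.7%), where 4.46% of all bright genes were. Brightness was taken from the mean over both groups. C7 was bright by that mean (percentile 75.7) but not by its control mean (percentile 56.3), so its rise helped to place it there. The same held for Fcna (75.1 against 73.9), which was not called. Counts with genes chosen by control signal alone were not tested. Centring the arrays on their median, or on the mean of the brightest 25% of genes, gave 21 complement genes higher and 4 lower. Of all called genes, 41.5% and 41.9% were then higher. An alternative added with the values known centred each array on the median deviation of the brightest 25% of genes. With it 63.2% of the 6904 called genes were higher, against 45.3% of 6362 as deposited, and the complement genes stood at 22 higher and 2 lower. Without control 5, control 6 and PCK 6, left out together as an alternative added with earlier results known, 22 complement genes were higher and 3 lower.

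Markers of other liver cells also differed between the groups. The mean of 5 cholangiocyte markers was 6.27 to 6.89 in PCK and 5.55 to 5.65 in control livers, with all 5 called higher. Counts of markers here and below stand beside 17.4% of all named genes called higher and 21.0% called lower. Macrophage markers are given beside C1q and stellate cell markers beside the collectins. Means of 4 endothelial markers (7.51 to 7.82 in PCK, 7.54 to 7.86 in control livers) and of 6 neutrophil markers (5.37 to 5.42 against 5.35 to 5.38) overlapped. Single markers still differed: of the endothelial ones Lyve1 was called lower (-0.24) and none higher. Of the dim neutrophil markers 3 were called higher, by 0.086 at most, and 1 lower, by -0.030. The part of these cells in the complement values was not tested.

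**Figure D1:**
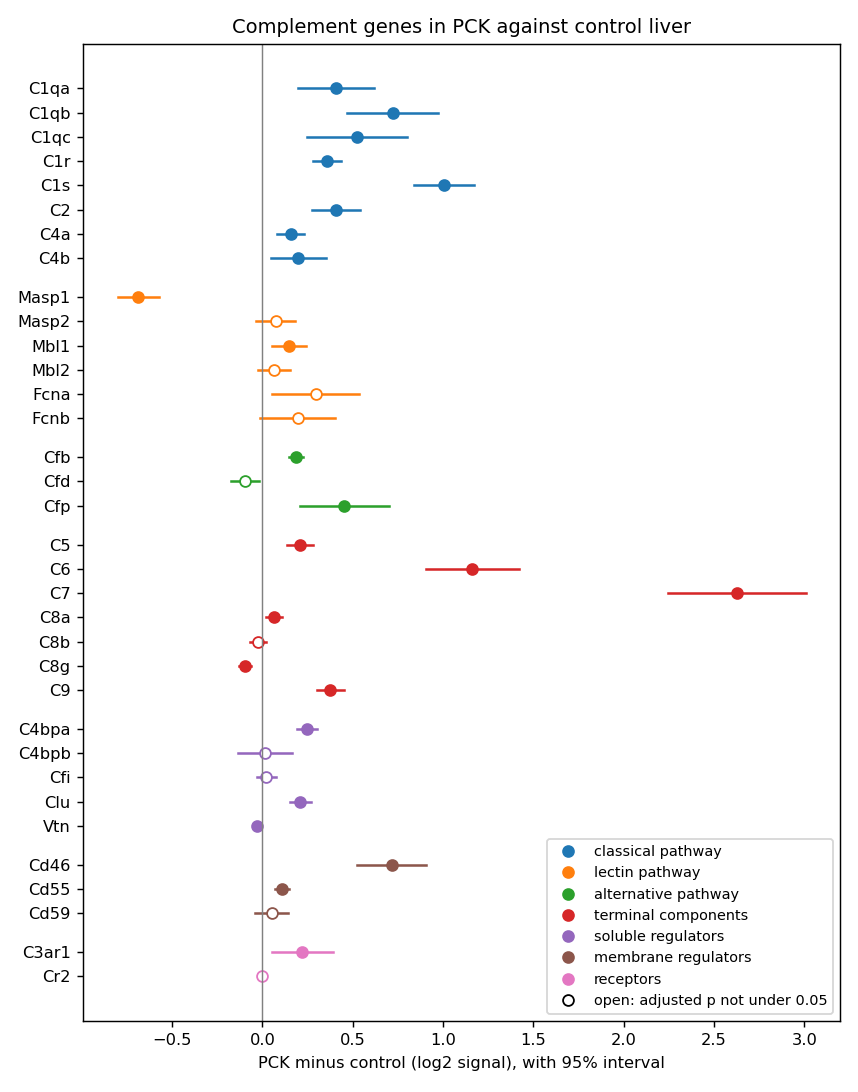
Difference between PCK and control livers (log2 signal, x axis) for the 34 complement genes, ordered by role, with the 95% interval of the limma fit; filled points passed an adjusted p under 0.05 and open points did not. C7 stands at 2.63, C6 at 1.16 and C1s at 1.01, all 8 classical genes lie above 0, and Masp1 lies at -0.69.

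Stretches around the start of 4 members are printed to show the DNA beside genes that rose clearly (C6, C1r), hardly moved (C8a) or fell (Masp1). RefSeq promoter windows, 250 bases before to 50 bases after the start that the table takes for each gene, matched 24 of the 34 genes. That start was the outer end of the annotated gene in 12, C1r and C8a among them, and lay inside it in the other 12, by 37 bases in C6 and by 641 in Masp1. The whole Masp1 window therefore lies within the annotated gene. Capitals mark matches to any of 4 short motifs on either strand: TTCNNNGAA for STAT factors, TTGCNNAA for C/EBP, GGGNNTTCC for NF-kB and the HNF1 half-site GTTAAT.

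C6 (GRCr8 chr2:55573383-55573682, plus strand): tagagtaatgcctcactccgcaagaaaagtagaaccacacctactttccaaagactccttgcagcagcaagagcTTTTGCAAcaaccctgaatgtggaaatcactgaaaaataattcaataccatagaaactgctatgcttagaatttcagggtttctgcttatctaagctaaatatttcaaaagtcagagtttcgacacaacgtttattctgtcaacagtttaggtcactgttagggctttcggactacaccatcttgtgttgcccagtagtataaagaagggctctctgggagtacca
C1r (GRCr8 chr4:159098763-159099062, plus strand): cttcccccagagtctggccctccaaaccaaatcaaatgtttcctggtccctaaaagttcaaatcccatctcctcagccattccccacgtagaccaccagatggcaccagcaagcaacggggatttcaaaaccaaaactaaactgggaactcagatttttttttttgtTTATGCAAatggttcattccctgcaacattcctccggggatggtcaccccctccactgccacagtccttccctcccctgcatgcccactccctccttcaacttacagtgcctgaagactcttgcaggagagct
C8a (GRCr8 chr5:124866582-124866881, minus strand): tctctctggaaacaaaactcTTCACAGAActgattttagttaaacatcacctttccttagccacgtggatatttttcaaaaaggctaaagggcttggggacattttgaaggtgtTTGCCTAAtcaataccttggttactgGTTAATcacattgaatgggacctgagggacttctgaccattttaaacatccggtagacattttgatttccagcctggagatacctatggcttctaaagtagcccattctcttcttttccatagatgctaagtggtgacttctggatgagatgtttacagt
Masp1 (GRCr8 chr11:90839472-90839771, plus strand): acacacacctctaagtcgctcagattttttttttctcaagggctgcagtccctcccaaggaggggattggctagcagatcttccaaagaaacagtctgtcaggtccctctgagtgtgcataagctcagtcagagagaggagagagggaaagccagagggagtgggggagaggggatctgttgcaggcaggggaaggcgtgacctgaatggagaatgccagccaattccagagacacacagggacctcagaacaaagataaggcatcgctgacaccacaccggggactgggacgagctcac

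Counted from the window's start site, the C/EBP letters began at position -176 in C6 and -83 in C1r. C8a held a STAT match from -230, a C/EBP match from -136 and an HNF1 half-site from -110, none of them overlapping, and Masp1 held no match in this window. Over the 24 windows, 6 (25%) held the C/EBP letters, where 10.5% of 27457 rat windows of this length did. The HNF1 half-site was in 5 (20.8% against 7.37%), the STAT letters in 4 (16.7% against 8.68%) and the NF-kB letters in 3 (12.5% against 5.97%). Genes with a C/EBP match were C1r, C4bpa and C6, which rose, C8a, at 0.062 (log2) and called, and C8b and Fcnb, which did not pass. These matches describe letters and do not show that a factor binds there.

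All 8 measured classical genes rose. Each of the C1q chains was higher in PCK livers. C1qa signals ran from 9.55 through a median of 9.66 to 9.81 in PCK livers and from 8.92 through 9.28 to 9.52 in controls. C1qb ran from 9.32 through 9.45 to 9.93 against 8.50, 8.80 and 9.01. C1qc ran from 8.55 through 8.81 to 9.29 against 8.05, 8.30 and 8.58. The groups did not overlap for C1qa and C1qb, and for C1qc 1 PCK liver, PCK 4, lay within the control range. C1qb rose by 0.72 ± 0.11 (log2, SE; limma adjusted p = 0.000476), C1qc by 0.52 ± 0.13 (limma adjusted p = 0.00664) and C1qa by 0.41 ± 0.096 (limma adjusted p = 0.00581). PCK 6 was the highest PCK liver for all of them, and without it C1qb rose by 0.63 and C1qc by 0.43.

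Macrophage genes rose alongside the C1q chains. Of 11 measured macrophage markers 8 were called higher and none lower, where 17.4% of all named genes were higher and 21.0% lower. Their mean level was 8.71 to 9.20 in PCK and 7.95 to 8.58 in control livers. Csf1r, the receptor for the macrophage growth factor, differed by 0.62 and the Kupffer cell lectin Clec4f by 0.83, while Cd163 (-0.080) and Mrc1 (-0.15) did not pass. The part of macrophage number in the C1q result was not tested, and in whole tissue more cells of a type and more RNA per cell cannot be told apart.

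C1r and C1s, the paired proteases of the C1 complex, are adjacent genes in the RefSeq annotation of assembly GRCr8, and both rose. C1s ran from 12.04 through 12.09 to 12.17 in PCK livers and from 10.85 through 11.12 to 11.30 in controls, a rise of 1.01 ± 0.075 (log2, SE; limma adjusted p = 2.66e-06). C1r ran from 12.78 through 12.81 to 12.87 against 12.38, 12.43 and 12.60, a rise of 0.36 ± 0.035 (limma adjusted p = 1.65e-05). Every PCK liver lay above every control liver for both. The 95% interval was 0.84 to 1.17 for C1s and 0.28 to 0.44 for C1r; the difference between them was not tested. C1rl, a C1r-like protease gene beside them, was lower, at -0.18 ± 0.062 (limma adjusted p = 0.0426).

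C2, the protease that joins cleaved C4 in the classical C3 convertase, ran from 9.80 through 9.89 to 10.12 in PCK livers and from 9.35 through 9.51 to 9.64 in controls. It rose by 0.41 ± 0.061 (log2, SE; limma adjusted p = 0.000315), with no overlap. C4 is encoded by a pair of near-identical genes, C4a and C4b, whose transcripts array probes may not separate. Current symbols are used here: the platform names the C4a row C4b and the C4b row C4-2. C4a ran from 13.03 through 13.12 to 13.17 against 12.84, 12.96 and 13.04, and C4b from 10.47 through 10.54 to 10.60 against 10.08, 10.39 and 10.53. The groups overlapped slightly for both. C4a rose by 0.16 ± 0.034 (limma adjusted p = 0.00345). C4b rose by 0.20 ± 0.069 (limma adjusted p = 0.0390), and this call was lost in 8 of 12 fits that each left out 1 liver, all but those without PCK 5, control 4, control 5 or control 6; its adjusted p then ran from 0.0153 to 0.0812.

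**Figure D2:**
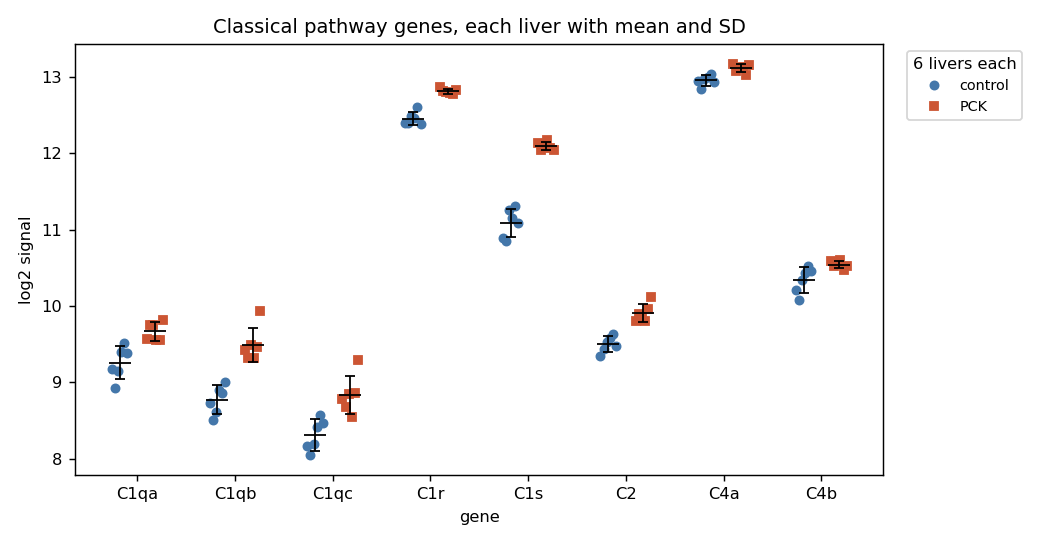
Log2 signal (y axis) of 8 classical pathway genes (x axis) in each of 6 control (circles) and 6 PCK livers (squares), with bars for the group mean and SD. The PCK livers of C1s, 12.04 to 12.17, stand clear of the controls, 10.85 to 11.30, while the C4a and C4b groups touch.

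The lectin route was split. Masp1, whose transcripts encode the proteases MASP-1 and MASP-3, was the only one of its 6 measured members to fall and the only one of the 34 genes to fall by 1.5-fold or more, where 1.95% of all genes did. It ran from 10.64 through 10.77 to 10.87 in PCK livers and from 11.35 through 11.44 to 11.58 in controls. All PCK livers lay below all controls, at -0.69 ± 0.052 (log2 difference and SE; limma adjusted p = 2.69e-06), or 1.61-fold lower. A gene-level row does not separate the Masp1 products. Masp2, whose protease cuts C4 and C2, ran from 11.51 through 11.54 to 11.69 against 11.31, 11.52 and 11.58, and its difference of 0.073 had a 95% interval from -0.033 to 0.18 (limma adjusted p = 0.267).

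Of the 4 mannose-binding lectin and ficolin genes, Mbl1 was called. Mbl1, a mannose-binding lectin, had a mean of 11.87 ± 0.078 in PCK and 11.72 ± 0.077 in control livers (SD, n = 6 each), and rose by 0.15 ± 0.043 (SE; limma adjusted p = 0.0185). Mbl2 differed by 0.066, with a 95% interval of -0.023 to 0.16 (limma adjusted p = 0.232). The ficolin genes Fcna, at 0.29 ± 0.11 (limma adjusted p = 0.0524), and Fcnb, at 0.20 ± 0.095 (limma adjusted p = 0.129), did not pass. Fcna, a macrophage product in rodents, passed in 3 of 12 fits without 1 liver (PCK 5, control 4 or control 5), at adjusted p values down to 0.0116. The collectins Colec10 and Colec11, which are not among the 34 but also act through MASP proteases, fell. Colec10 ran from 6.37 through 6.53 to 6.72 in PCK livers and from 6.98 through 7.10 to 7.36 in controls, without overlap (-0.59 ± 0.075; limma adjusted p = 0.000102). Colec11 overlapped slightly, at 6.82, 7.03 and 7.32 against 7.31, 7.40 and 7.63 (-0.39 ± 0.082; limma adjusted p = 0.00322).

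Hepatic stellate cells are known to express these collectins. Markers of stellate cells and fibroblasts went both ways: of 7 measured, 5 were higher, with Dcn at 2.01 and Rgs5 at 1.42, and 2 were lower, Lrat at -0.24 and Reln at -0.29. Their mean level was 7.57 to 7.87 in PCK and 6.82 to 7.28 in control livers. The part of stellate cells in the collectin values was not tested.

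**Figure D3:**
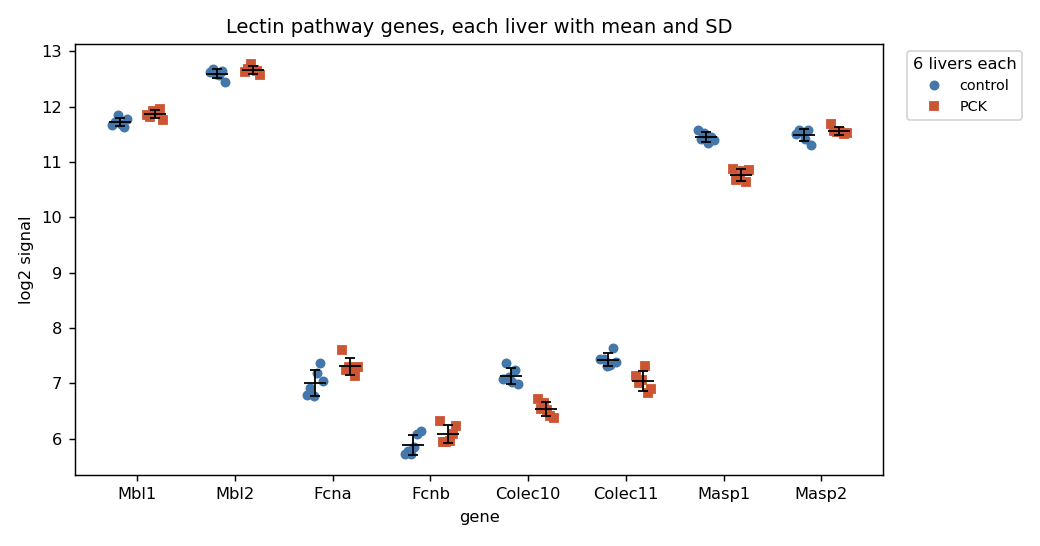
Log2 signal (y axis) of 8 lectin route genes (x axis) in each of 6 control (circles) and 6 PCK livers (squares), with bars for the group mean and SD. Colec10 and Masp1 are lower in every PCK liver than in any control liver, and the mannose-binding lectin groups overlap.

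Of the alternative route, 2 of 3 measured genes rose. Factor B, encoded by Cfb next to C2, ran from 12.11 through 12.15 to 12.21 in PCK livers and from 11.93 through 11.96 to 12.01 in controls. The groups did not overlap, and the rise was small but even among animals, 0.19 ± 0.018 (log2, SE; limma adjusted p = 1.65e-05). Properdin, encoded by Cfp and made by leukocytes, stabilises the alternative convertase. Cfp ran from 9.75 through 9.85 to 10.32 against 9.17, 9.48 and 9.72, a rise of 0.45 ± 0.11 (limma adjusted p = 0.00800) without overlap. PCK 6 was the highest liver here too, and without it the rise was 0.37. Cfd, the adipocyte protease factor D, lay near the median of the table in both groups, at 5.69 ± 0.032 in PCK and 5.78 ± 0.084 in control livers (SD, n = 6 each). Its difference of -0.096 ± 0.035 (SE) had a limma adjusted p of 0.0506, and it passed in 3 of 12 fits without 1 liver (PCK 1, control 1 or control 3), at adjusted p values down to 0.0243. Of 4 adipocyte markers 2 were higher, with means of 5.42 to 5.49 in PCK and 5.35 to 5.37 in control livers.

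The terminal components held the largest rises. C7, which anchors the growing attack complex in the membrane, ran from 8.01 through 8.50 to 9.29 in PCK livers and from 5.69 through 5.94 to 6.11 in controls. Every PCK liver stood well above every control, and the rise was 2.63 ± 0.17 (log2, SE; limma adjusted p = 1.23e-06), or 6.18-fold. Control signals lay near the table's median of 5.66, and the table holds no detection calls, so the size of the fold is uncertain. PCK 6 was the highest liver, and without it the rise was 2.48. C6, which binds C5b and then C7, ran from 11.89 through 11.98 to 12.09 against 10.56, 10.75 and 11.21. The PCK livers lay within a narrow band and the controls were spread, controls 1, 2 and 4 lying at 10.56 to 10.59 and controls 3, 5 and 6 at 10.91 to 11.21. C6 rose by 1.16 ± 0.12 (limma adjusted p = 1.97e-05), or 2.24-fold.

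C9, the unit that polymerises into the pore, ran from 13.15 through 13.17 to 13.29 in PCK livers and from 12.74 through 12.81 to 12.92 in controls, without overlap. It rose by 0.38 ± 0.034 (log2, SE; limma adjusted p = 9.30e-06). C5, whose cleavage starts the terminal stage, rose by 0.21 ± 0.032 (limma adjusted p = 0.000440), with PCK livers at 12.70, 12.75 and 12.83 and controls at 12.46, 12.52 and 12.62. The genes C6, C7 and C9 lie close together in that annotation, with 1 protein-coding gene between C6 and C7 and 7 between C7 and C9.

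The 3 chains of C8 stayed near their control levels, which lay in the upper part of a range that ended at 13.98. C8a ran from 12.35 through 12.38 to 12.43 in PCK livers and from 12.26 through 12.33 to 12.36 in controls, C8b from 12.45 through 12.50 to 12.52 against 12.45, 12.51 and 12.57, and C8g from 12.96 through 12.96 to 13.00 against 13.04, 13.06 and 13.13. Only the C8g groups did not overlap. C8g fell by 0.098 on the log2 scale (SE 0.015; limma adjusted p = 0.000369). C8b differed by -0.022, with a 95% interval of -0.066 to 0.021 (limma adjusted p = 0.416). Its sign turned under the centring on the brightest genes' median deviation. C8a differed by 0.062 ± 0.020 (limma adjusted p = 0.0300), a call lost in 4 of 12 fits without 1 liver (PCK 3, PCK 4, control 4 or control 6), where its adjusted p reached 0.0634, and with a variance trend (0.137). C8a and C8b sit side by side in the annotation and C8g lies elsewhere.

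**Figure D4:**
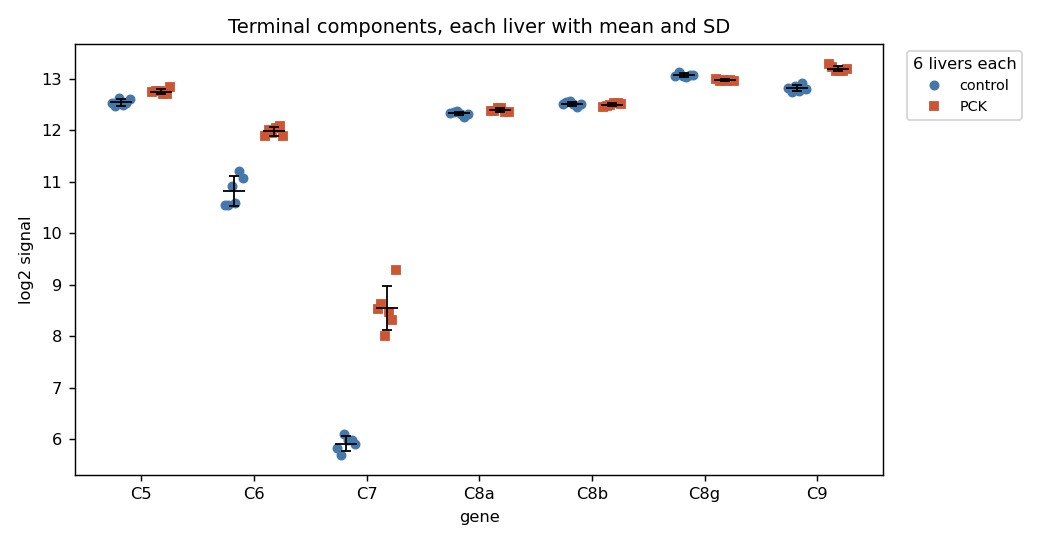
Log2 signal (y axis) of 7 terminal component genes (x axis) in each of 6 control (circles) and 6 PCK livers (squares), with bars for the group mean and SD. C7 is at 6.11 or less in every control and at 8.01 or more in every PCK liver, C6 is wide only in the controls, and the C8 chains lie almost level.

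The soluble regulators kept to small changes, and all were bright, with a mean signal of 13.51 for Vtn in a table that ended at 13.98. C4bpa, the alpha chain of C4b-binding protein, which helps degrade C4b, ran from 13.01 through 13.07 to 13.16 in PCK livers and from 12.79 through 12.82 to 12.91 in controls. It rose by 0.25 ± 0.026 (log2, SE; limma adjusted p = 2.44e-05), without overlap. C4bpb, its beta chain, ran from 11.51 through 11.57 to 11.58 against 11.35, 11.56 and 11.73. The control livers were uneven, with controls 1, 3 and 6 at 11.64 to 11.73 and controls 2, 4 and 5 at 11.35 to 11.47, and the difference of 0.015 had a 95% interval of -0.13 to 0.16 (limma adjusted p = 0.892). Clusterin, encoded by Clu, keeps the attack complex from inserting into membranes. Clu rose by 0.21 ± 0.026 (limma adjusted p = 8.95e-05), with PCK livers at 12.45, 12.49 and 12.59 and controls at 12.24, 12.29 and 12.34.

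Vitronectin, encoded by Vtn, which also binds the soluble attack complex, differed by -0.028 ± 0.0096 (log2, SE; limma adjusted p = 0.0386). That call was lost in 7 of 12 fits without 1 liver (PCK 1, 3 or 6, or control 1, 2, 3 or 4). The limma adjusted p of Vtn reached 0.0805 there, and 0.742 under the centring on the brightest genes' median deviation. Cfi, the protease factor I that cuts C3b and C4b, differed by 0.022, with a 95% interval of -0.029 to 0.073 (limma adjusted p = 0.509). Serping1, the C1 inhibitor gene, is outside the 34 and did not pass either (-0.060; limma adjusted p = 0.243).

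Of the membrane regulators Cd46 and Cd55 rose, both from dim signals. Cd46, a cofactor for factor I that rodents are known to express mainly in testis, ran from 5.89 through 5.96 to 6.44 in PCK livers and from 5.31 through 5.34 to 5.42 in controls. It rose by 0.72 ± 0.087 (log2, SE; limma adjusted p = 7.26e-05) with no overlap. Cd55, which speeds the decay of convertases, rose by 0.11 ± 0.018 (limma adjusted p = 0.000621), at 5.33, 5.38 and 5.43 against 5.23, 5.27 and 5.32. Control signals of both lay below the table's median of 5.66, so the size of these rises is uncertain. Cr1l, the rodent convertase regulator also known as Crry and the gene next to Cd46, is outside the 34 and rose by 0.68 ± 0.054 (limma adjusted p = 4.10e-06). Cr1l signals were 7.22, 7.42 and 7.63 in PCK livers and 6.67, 6.75 and 6.79 in controls. Cd59, which blocks C9 polymerisation, differed by 0.052, with a 95% interval of -0.039 to 0.14 (limma adjusted p = 0.360). The current symbol of the Cd59 row is Cd59b.

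The measured receptors were dim. C3ar1, the receptor for the C3a fragment on myeloid cells, ran from 6.16 through 6.21 to 6.32 in PCK livers and from 5.75 through 5.99 to 6.22 in controls. Its difference of 0.22 ± 0.077 (log2, SE) had a limma adjusted p of 0.0412, and the call was lost in 10 of 12 fits without 1 liver, all but those without control 5 or control 6, where the adjusted p reached 0.0851. Cr2, the B cell receptor for C3d, lay at 5.24 in both groups (limma adjusted p = 0.818), at the bottom of the range. The mean of 5 B cell markers lay near the median of the table, at 5.65 to 5.71 in PCK and 5.62 to 5.81 in control livers. Among these markers 1 was called higher, Cd22 at 0.12, and 1 lower, Pax5 at -0.097.

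**Figure D5:**
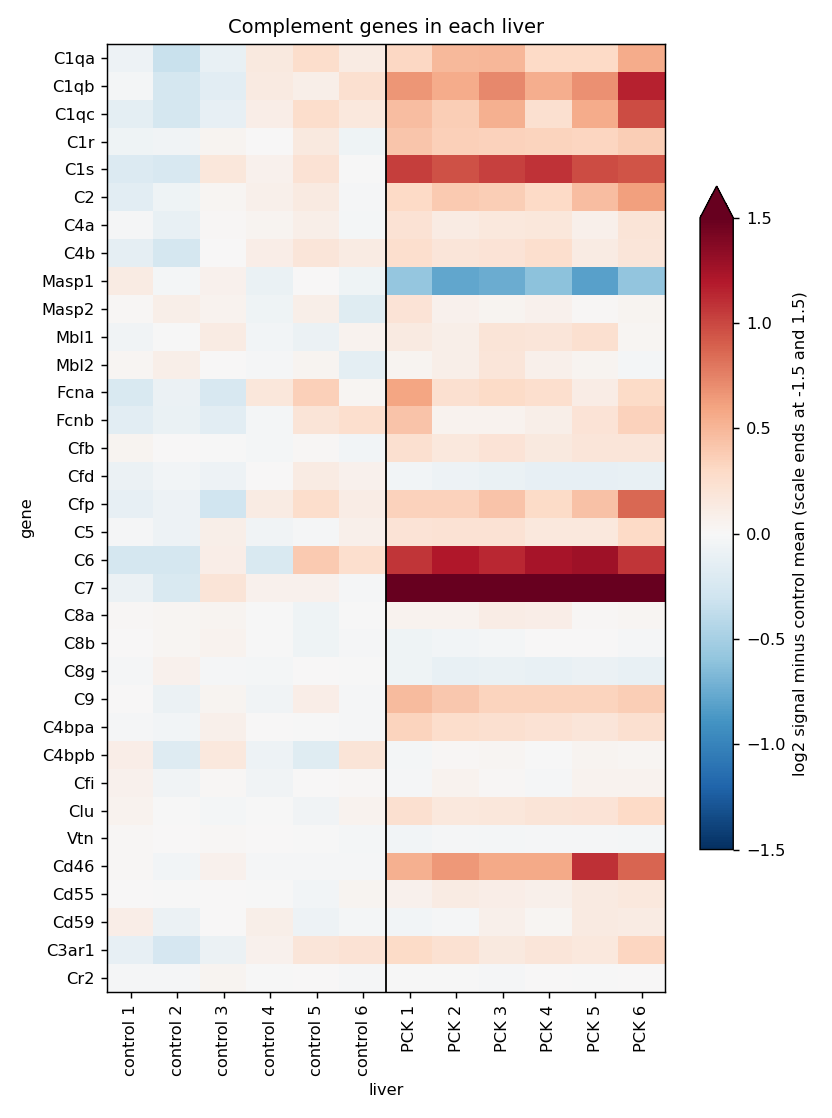
Log2 signal minus the control mean (colour, with values past the scale shown at its end) of the 34 complement genes (rows) in each of the 12 livers (columns). All 6 PCK livers show the C7, C6, C1s and Masp1 differences, and PCK 6 is darkest for C1qb, C1qc and Cfp.

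Chains of 1 protein or complex were compared from animal to animal within each group, in 8 pairs and 16 relations. C1qb and C1qc went together among PCK livers (r = 0.98, rho = 0.94, exact permutation p = 0.0028 for r and 0.0167 for rho, n = 6; adjusted p = 0.0222 and 0.133). C8a and C8b did so among controls (r = 0.98, rho = 0.94, exact permutation p = 0.0028 for r and 0.0167 for rho, n = 6; adjusted p = 0.0222 and 0.133). Without the 2 livers farthest from the median of the first gene, r was 0.95 and 0.92. No relation passed the adjustment by rho and the other 14 did not pass by r. C8a with C8b among PCK livers gave r = -0.029 (rho = -0.24, exact permutation p = 0.967 and 0.650, n = 6), and r = -0.95 without the 2 farthest livers, so that value rests on those livers.

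Beyond the 34, 20 of 26 further complement genes were measured. Of these, 7 were called higher and 6 lower (65% called), where 17.4% of all named genes were higher and 21.0% lower. Their median difference was 0.028 (log2). Receptor genes of phagocytes were among those that rose: Itgb2, the beta chain of complement receptors 3 and 4, by 0.67 ± 0.15 (SE; limma adjusted p = 0.00377), and Vsig4, the Kupffer cell receptor for C3b and also one of the macrophage markers, by 0.66 ± 0.15 (limma adjusted p = 0.00437). The alpha chains Itgam and Itgax rose by 0.16 and 0.083, with control means of 5.33 and 5.36, below the table's median. The pentraxin Apcs, which binds C1q, fell (-0.37 ± 0.028; limma adjusted p = 2.89e-06), while its neighbour Crp differed by -0.014 (limma adjusted p = 0.491). Cpn2, a subunit of the carboxypeptidase that trims C3a and C5a, fell (-0.21 ± 0.053; limma adjusted p = 0.00981).

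Genes of the cytokine and transcription factor routes known to drive complement genes in hepatocytes went both ways. Of 17 measured, 7 were called higher and 5 lower, with a median difference of 0.013 (log2). Over all named genes 17.4% were called higher and 21.0% lower. Jak1 (0.28), Jak2 (0.27), Nfkb1 (0.30) and Rela (0.23) were called higher, and Il1r1 (-0.45) and Tnfrsf1a (-0.26) were called lower. Socs3, Cebpa and Irf1 did not pass. Osmr, the oncostatin M receptor, ran from 9.14 through 9.27 to 9.82 in PCK livers and from 6.33 through 7.42 to 7.95 in controls, and rose by 1.98 ± 0.25 (SE; limma adjusted p = 9.58e-05). The interferon gamma receptor Ifngr1 rose by 0.52 ± 0.065 (limma adjusted p = 9.84e-05) and Nfkbia, the inhibitor of NF-kB, by 0.46 ± 0.10 (limma adjusted p = 0.00387). The interleukin 6 receptor Il6r fell (-0.59 ± 0.086; limma adjusted p = 0.000276), and so did its partner Il6st (-0.28) and the liver factor Hnf4a (-0.29). Stat3 (-0.010; limma adjusted p = 0.954) and Cebpb (-0.15; limma adjusted p = 0.123) did not pass.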

How the data were processed

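Total RNA of 12 snap-frozen livers was isolated with Trizol and made into biotinylated cRNA for Affymetrix arrays, per the labels' protocols. Log2 signals of 19239 probe sets were deposited in 1 table; the log base and the range were read from the values, and all 12 sorted columns are identical, as quantile normalization gives. Total RNA differences are removed by such a step. The summarisation tool is not given in the sources used here. The table has no detection calls.

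Groups and numbers came from the sample titles, which call the replicates biological. The platform annotation named 16592 probe sets and left 2647 unnamed; 3326 older symbols were replaced through RefSeq GRCr8. Log2 values of all named genes were tested without a filter with limma 3.58.1 in R 4.3.3 (lmFit, eBayes, 2-sided, Benjamini-Hochberg over 16592 genes, threshold 0.05). Standard errors and 95% intervals are moderated. Correlations used exact permutation over all pairings. The fit was tested on simulated data. Named genes were all members; members called with a difference of at least 0.3 (log2), and the C1q, C4, C5 and C8 genes, were to be given by lowest, median and highest value, as some others were. Of the 2 other lists up to 4 called genes of largest difference were named by rule. Further genes there were chosen after their values were seen, until every measured signal gene was named. Members, lists and motifs were chosen with earlier results of these data known. Comparison of protein sequences was not done here. Alternatives varied centring, the filter on dim genes, probe sets, variance model, array weights, the replicate block, thresholds and the livers used.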

Additional observations from a re-analysis of the deposited data

Results flagged for a closer look

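In 4 of the 68 groups of 6 values (34 genes, each in PCK and control livers) 1 liver stood farther from the nearest other than Dixon's critical value of 0.625 of the group's range allows; chance flags about 5% of groups. C1qb in PCK 6 was at 9.93, with the other 5 PCK livers at 9.32 to 9.49 (ratio 0.719). Cfp in PCK 6 was at 10.32, with the others at 9.75 to 9.91 (ratio 0.728). PCK 6 was also the highest PCK liver for the macrophage genes Cd68, at 8.99 against 8.27 to 8.58, and Csf1r, at 9.95 against 9.37 to 9.61. The same held for Fcgr1a, at 7.32 against 6.50 to 6.72, but not for the macrophage markers Clec4f and Mrc1. Some markers of other cells were highest in PCK 6 too. Among them were Rgs5, at 8.875 against 8.09 to 8.61, and Dcn, at 10.66 against 10.10 to 10.45. Krt19 was at 8.28 against 7.38 to 7.70. Others were not highest there, such as the stellate cell markers Pdgfrb and Lrat and the endothelial marker Stab2. Masp2 in PCK 1 was at 11.69, with the others at 11.51 to 11.56 (ratio 0.740), and Fcna in PCK 1 was at 7.60, with the others at 7.12 to 7.30 (ratio 0.628).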

How the results depend on the processing

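Of the 24 calls among complement genes 19 held at an adjusted p under 0.05 in each fit that tested them, 17 higher and 2 lower (Masp1 and C8g); the filter on dim genes dropped Cd46 and Cd55 from 1 fit. Mbl1 was lost with the replicate block (0.0570), C4b, C8a, Vtn and C3ar1 were lost in at least 1 fit, and Fcna, Fcnb and Cfd were gained in at least 1. Leaving out 1 liver gave 18 to 22 complement genes higher and 2 to 3 lower, 6 to 8 and 5 to 6 of the other complement genes, and 7 and 4 to 6 of the signal genes. Requiring 1.5-fold left 5 complement genes higher and 1 lower, 3 and 1 of the other complement genes, and 1 and 1 of the signal genes, fewer by construction. At an adjusted p under 0.01, 3 signal genes were lower. With dim genes left out, 4 other complement genes were higher, since fewer were tested. Signs turned for C8b (0.0005) and Cr2 (0.0192) under the centring on the brightest genes' median deviation, for Cr2 without control 3 (-0.0083 to 0.0040 over the fits without 1 liver), and for C4bpb without control 2 or control 5 (-0.024 to 0.053). By rho, 0 subunit relations passed, against 2 by r and 6 at an unadjusted p under 0.05. The replicate numbers did not pair the livers (correlations -0.14 to 0.17, best with the own number in 1 of 6), and with the replicate block 18 complement genes were higher and 2 lower and 5423 genes were called. Signal near the bottom of the range limits C7, Cd46, Cd55, Cfd and Cr2. Other members lay near its top, where Alb stood at 13.98 in all 12 livers, among them Vtn, C4bpa, C4a, C8g and C9. Whether the size of differences is limited there was not tested.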
